A study of Arvicanthis niloticus with 5 samples.

Results

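Receptors for monoamines, acetylcholine, purines and neuropeptides were examined in RNA from the eyes of wild type Nile rats (Arvicanthis niloticus), a day-active African rodent. Members were taken by a rule on gene symbols that does not use their levels, though the receptor families in it were named with earlier results of these data known: dopamine, serotonin, adrenergic, histamine, nicotinic, muscarinic, P2X, P2Y, adenosine, opioid, somatostatin, neuropeptide Y, VIP and PACAP, and tachykinin receptors. Of the 13983 genes that carried a symbol in the table, 51 were members, on 58 transcripts. The labels give 5 samples of whole eye tissue in 1 group, with no treatment and no stated age or time of day. Per the labels' protocols the library was pooled from the RNA of 5 rats, and the expression table holds 1 column of values, so there are no replicates and no group to compare. Levels are in FPKM, fragments per kilobase of transcript and per 1000000 mapped fragments, and intervals in square brackets are 95% intervals for counting error alone.

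These receptors read transmitters that tune the eye rather than carry the image itself. Most pass the signal to a G protein. Gs raises cyclic AMP, Gi/o lowers it, and Gq/11 releases calcium, while nicotinic, P2X and some serotonin receptors are ion channels. In the mammalian retina, dopamine from amacrine cells adapts the circuit to daylight and acetylcholine is released by starburst amacrine cells. In the front of the eye, adrenergic and muscarinic receptors act on pupil size, focus and the fluid of the anterior chamber.

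Markers of lens, photoreceptors, pigment epithelium and cornea were present where they carried a symbol. All 5 lens markers, all 5 photoreceptor markers and all 3 measured markers of the pigment epithelium were above 10 FPKM. Best1, the other listed marker of the pigment epithelium, carried no symbol. Of the 4 cornea markers, Krt12 and Kera were also above 10 FPKM, while Krt5 and Aldh3a1 carried no symbol. Among all named genes, 34.0% reached 10 FPKM. The pool also held RNA of skeletal muscle genes, with 7 of 8 markers measured, at 15.3 to 174 FPKM. All 6 markers of microglia and macrophages lay between 2.67 and 12.1 FPKM. In such a bulk pool, few cells of a type and little RNA per cell cannot be told apart.

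As a class the receptors were low. Their median was 2.50 FPKM, against 6.50 FPKM over all named genes. Of the 51 receptors, 43 reached 1 FPKM (84.3%, against 93.2% of all named genes), 12 reached 5 FPKM (23.5%, against 59.8%) and 4 reached 10 FPKM (7.84%, against 34.0%). At a lower mark of 0.5 FPKM the count was 49, where 99.0% of all named genes were counted. The highest were Chrnb2, Hrh3 and Drd1. Together the receptors made up 0.0945% of the summed FPKM of named genes, and the 10 highest held 56.9% of this. Other membrane proteins of excitable cells were less low. The 36 GABA, glycine and glutamate receptor genes had a median of 4.47 FPKM, and the 58 potassium channel subunits one of 3.50 FPKM. No test was made between these groups of genes, since all values come from 1 pool.

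**Figure D1:**
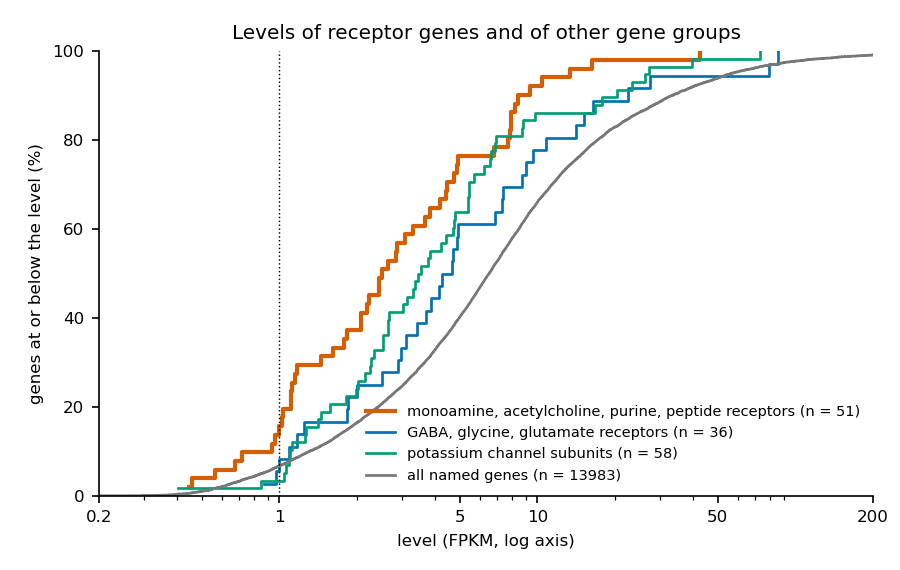
Percentage of genes at or below each level (FPKM, log axis) for the 51 receptors, for 2 other groups of membrane proteins and for all 13983 named genes, in the 1 pool. The dotted line marks 1 FPKM; the curve of the receptors lies left of that of all named genes, with medians of 2.50 and 6.50 FPKM.

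**Figure D2:**
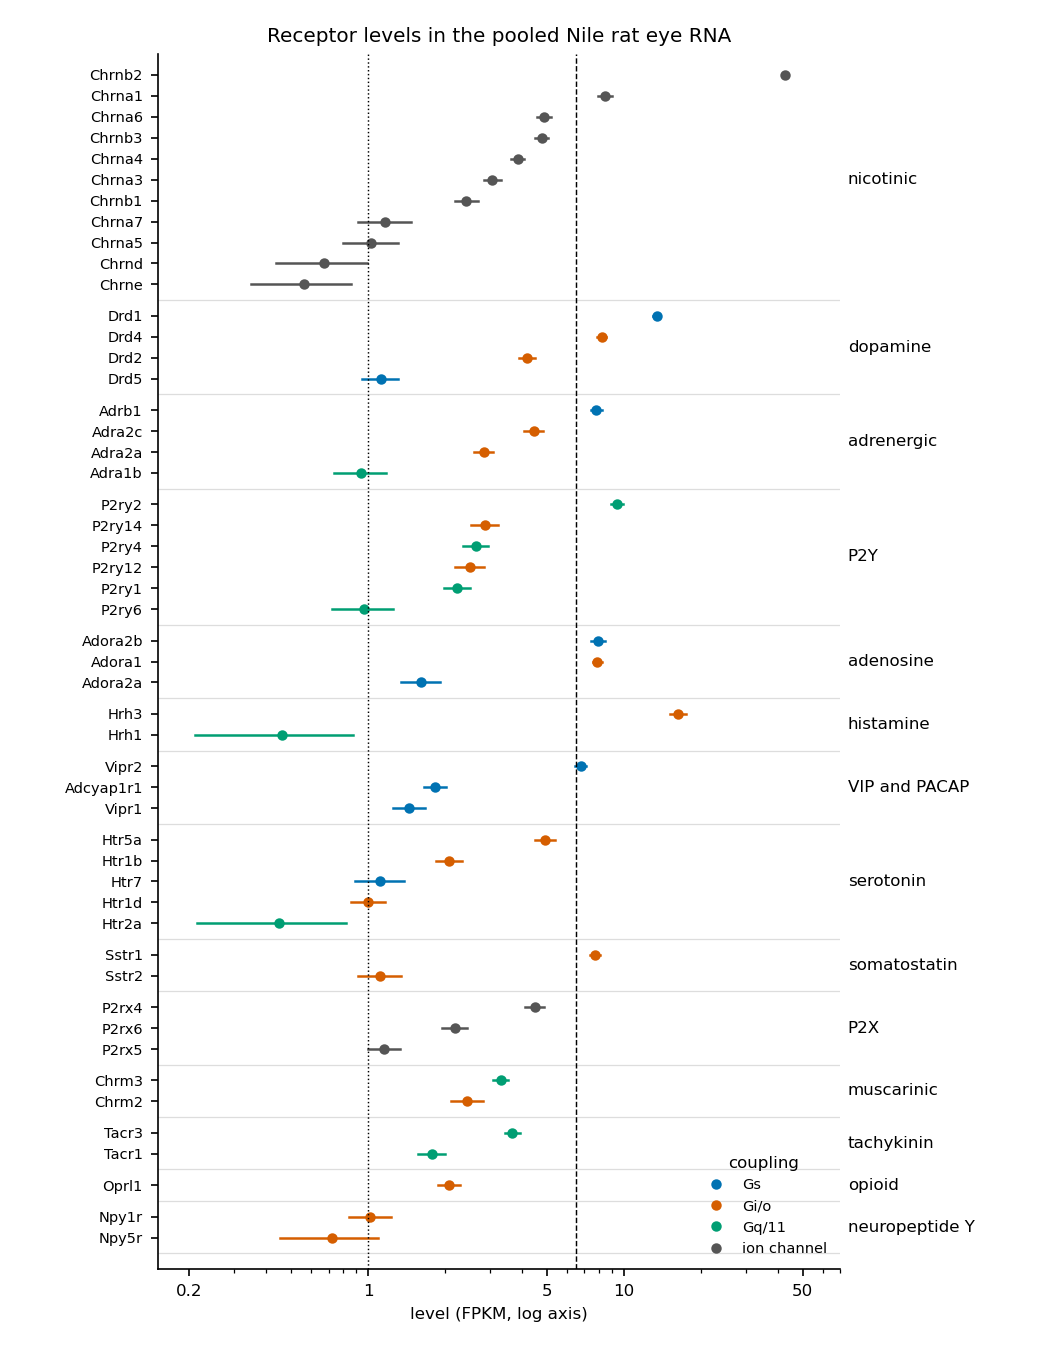
Level of 50 of the 51 receptors (FPKM, log axis) by family, with 95% counting intervals as bars and colours for coupling. The dotted line marks 1 FPKM and the dashed line the median of all named genes, 6.50 FPKM; 11 of the receptors shown lie right of the dashed line, and the families are ordered from the highest to the lowest summed level.

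All 4 measured dopamine receptors reached 1 FPKM, as did 93.2% of all named genes, and the 4 summed to 26.9 FPKM [26.3 to 27.6]. Drd1, the Gs-coupled D1 receptor, was at 13.4 FPKM [13.01 to 13.9] on 3641.5 fragments and was the third of the 51 receptors. Its transcript carried the older symbol Drd1a in mouse and rat. Drd4, a Gi/o-coupled receptor known from rodent photoreceptors, was at 8.19 FPKM [7.84 to 8.55], and Drd2, the receptor by which dopamine neurons sense their own release, at 4.18 FPKM [3.88 to 4.50]. Drd5, the other Gs-coupled member, was lowest at 1.12 FPKM [0.949 to 1.31]. Drd4 was 1.96-fold [1.80 to 2.13] and Drd1 3.21-fold [2.97 to 3.48] above Drd2, while Drd5 over Drd1 had a log2 ratio of -3.59 [-3.82 to -3.35]. Summed, the Gs-coupled D1-like receptors stood at 14.6 FPKM and the Gi/o-coupled D2-like ones at 12.4 FPKM, a ratio of 1.18 [1.12 to 1.24]. No transcript carried the symbol Drd3.

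Adrenergic receptors bind noradrenaline and adrenaline. Adrb1, a Gs-coupled beta receptor of the kind blocked by the beta blockers used against high eye pressure, was at 7.81 FPKM [7.44 to 8.19]. The Gi/o-coupled alpha2 receptors were lower, with Adra2a at 2.83 FPKM [2.58 to 3.09] and Adra2c at 4.44 FPKM [4.07 to 4.84], a log2 ratio of -0.65 [-0.83 to -0.47]. Adra1b, a Gq/11-coupled alpha1 receptor, was at 0.934 FPKM [0.732 to 1.17] on 73 fragments, so its place above or below 1 FPKM was not resolved. Adra1a, Adra1d, Adra2b and Adrb3 carried no symbol here and were not analysed.

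The measured serotonin receptors were low. Htr5a, a Gi/o-coupled receptor, was highest at 4.92 FPKM [4.50 to 5.37], summed over transcripts at 3.58 and 1.34 FPKM. Htr1b, a presynaptic Gi/o-coupled receptor, was at 2.08 FPKM [1.84 to 2.33], and the Gs-coupled Htr7 at 1.11 FPKM [0.885 to 1.38]. Htr1d, close in sequence and coupling to Htr1b, was at 0.999 FPKM [0.853 to 1.16]. Htr2a, a Gq/11-coupled receptor, was the lowest of all 51 members at 0.446 FPKM [0.214 to 0.820], on 10 fragments of a 345 nt transcript. The 5 measured members had a median of 1.11 FPKM, and 3 of them reached 1 FPKM, a mark reached by 93.2% of all named genes. Htr1a, Htr1f, Htr2b, Htr2c, Htr3a, Htr3b, Htr4 and Htr6 carried no symbol here, so nothing is said of their levels.

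The histamine family held its extremes. Hrh1, the Gq/11-coupled receptor of allergic responses, was at 0.459 FPKM [0.210 to 0.871] on 9 fragments and 302 nt. Hrh3, the Gi/o-coupled receptor that restrains transmitter release from nerve endings, was second among all members at 16.3 FPKM [15.2 to 17.5]. The log2 ratio of Hrh1 to Hrh3 was -5.15 [-6.10 to -4.20], and it was -4.17 with a length-weighted mean of the transcripts. The value of Hrh3 is a sum of transcripts at 8.42 FPKM (1145 nt) and 7.88 FPKM (533 nt), and if these are pieces of 1 mRNA the sum counts it more than once. With the highest transcript alone Hrh3 was at 8.42 FPKM and 5th among the members. Hrh2 and Hrh4 had no transcript with their symbol.

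Neuronal nicotinic subunits were led by a single gene. These subunits assemble in fives around a cation channel opened by acetylcholine. Chrnb2, the beta subunit shared by most neuronal types and needed in mice for the cholinergic waves of the developing retina, was at 42.5 FPKM [41.7 to 43.3] on 10999 fragments of a 3982 nt transcript. It was the highest of the 51 receptors, held 18.3% of their summed FPKM and lay above 92.6% of all named genes. It was 3.16-fold [3.05 to 3.28] above Drd1, the next receptor that rested on 1 transcript.

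The alpha subunits that pair with Chrnb2 were far lower than it. Chrna6 was at 4.88 FPKM [4.57 to 5.21], Chrna4 at 3.85 FPKM [3.63 to 4.08] and Chrna3 at 3.06 FPKM [2.83 to 3.31]. Chrna7, which can form channels without a beta subunit, was at 1.17 FPKM [0.916 to 1.47], and the accessory subunit Chrna5 at 1.03 FPKM [0.794 to 1.31]. Chrnb2 was 3.04-fold [2.90 to 3.18] above the sum of these 5 alpha subunits, a comparison chosen after the values were seen. Chrnb3, an accessory subunit found with Chrna6 in rodent neurons, was at 4.77 FPKM [4.51 to 5.05], and Chrnb2 was 8.91-fold [8.39 to 9.46] above it. Chrna4 was 1.26-fold [1.14 to 1.39] above Chrna3. Chrna6 was 4.18-fold [3.30 to 5.30] above Chrna7, but it was the sum of 3 transcripts, each named from a different species. With the highest of these, at 2.10 FPKM, the log2 ratio was 0.85 in place of 2.06, and with a length-weighted mean it was 0.34. Chrnb4, Chrna2, Chrna9 and Chrna10 had no transcript with their symbol and were not analysed here.

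Subunits of the muscle nicotinic receptor were also present, but unevenly. Chrna1, the acetylcholine-binding subunit of the neuromuscular junction, was at 8.42 FPKM [7.89 to 8.98], and Chrnb1 at 2.42 FPKM [2.18 to 2.68]. Chrnd was at 0.672 FPKM [0.435 to 0.991] and Chrne, the subunit that replaces the fetal gamma subunit in adult muscle, at 0.561 FPKM [0.347 to 0.858]. Chrnd and Chrne rested on 25 and 21 fragments of transcripts of 573 and 576 nt. Chrna1 was 3.48-fold [3.08 to 3.92] above Chrnb1. The 7 neuronal subunits summed to 61.3 FPKM and the 4 muscle subunits to 12.1 FPKM, a ratio of 5.07 [4.78 to 5.39]. Chrnb2 alone held 42.5 FPKM of the neuronal sum, and these ratios were chosen after the values were seen. The 7 measured skeletal muscle markers, with Tnnc2 highest and Myh4 lowest, summed to 517 FPKM in the same pool, and their part in the level of the muscle subunits was not tested.

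Muscarinic receptors were represented by Chrm3 and Chrm2. Chrm3, the Gq/11-coupled receptor that contracts the iris sphincter and ciliary muscle, was at 3.30 FPKM [3.08 to 3.52]. Chrm2, Gi/o-coupled, was at 2.44 FPKM [2.11 to 2.82], summed over transcripts at 1.52 and 0.922 FPKM. Chrm3 was 1.35-fold [1.16 to 1.58] above Chrm2, a log2 ratio of 0.43 that was 1.12 with the highest transcript and 1.24 with a length-weighted mean. The symbols Chrm1, Chrm4 and Chrm5 were carried by no transcript.

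Adenosine receptors had the highest family median, apart from the 2 histamine receptors, at 7.88 FPKM. Adora1, the Gi/o-coupled receptor of high affinity that dampens transmitter release, was at 7.88 FPKM [7.58 to 8.19]. Adora2b, the Gs-coupled receptor of low affinity, was at 7.92 FPKM [7.42 to 8.44], and these levels did not differ beyond counting error. Adora2a, the other Gs-coupled receptor, was at 1.61 FPKM [1.34 to 1.91]. Adora1 was 4.89-fold [4.10 to 5.85] and Adora2b 4.92-fold [4.09 to 5.92] above Adora2a.

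Receptors for nucleotides were led by P2ry2, the Gq/11-coupled receptor for ATP and UTP that drives fluid and mucin secretion at the ocular surface. P2ry2 was at 9.40 FPKM [8.94 to 9.88], the sum of transcripts of 2643 and 2459 nt at 4.92 and 4.48 FPKM. The rest of the P2Y family was lower. P2ry14, a receptor for UDP-sugars, was at 2.86 FPKM [2.51 to 3.23], and P2ry4, a UTP receptor, at 2.63 FPKM [2.34 to 2.95]. P2ry12, an ADP receptor of microglia and platelets, was at 2.50 FPKM [2.18 to 2.85]. P2ry1, the Gq/11-coupled ADP receptor, was at 2.23 FPKM [1.98 to 2.50]. P2ry12 over P2ry1 gave 1.12 [0.940 to 1.33], an interval that holds equality. P2ry6, which binds UDP, was lowest at 0.962 FPKM [0.723 to 1.26].

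Markers of the cells that carry P2ry12 were measured in the same pool. The 6 microglia and macrophage markers had a median of 6.35 FPKM, close to the 6.50 FPKM of all named genes. Csf1r was highest at 12.1 FPKM and Cx3cr1 lowest at 2.67 FPKM. Of the 3 platelet markers, Pf4 was at 5.72 FPKM and Itga2b at 1.06 FPKM [0.803 to 1.37], an interval that spans 1 FPKM. Gp9, the other platelet marker, carried no symbol. The part of these cells in the level of P2ry12 was not tested.

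The P2Y receptors summed to 20.6 FPKM and the ATP-gated P2X channels to 7.81 FPKM. Of the channels, P2rx4 was highest at 4.47 FPKM [4.11 to 4.86]. P2rx6, which forms few working channels alone, was at 2.19 FPKM [1.95 to 2.44], and P2rx5 at 1.15 FPKM [0.997 to 1.33]. P2Y over P2X was 2.63 [2.45 to 2.83], and 1.91 with the highest transcript of each gene. P2rx7, P2rx1, P2rx2 and P2rx3 had no transcript with their symbol.

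Peptide receptors were led by Sstr1 and Vipr2. Sstr1, a Gi/o-coupled somatostatin receptor, was at 7.69 FPKM [7.37 to 8.03], and Sstr2 at 1.11 FPKM [0.912 to 1.34]. Among the Gs-coupled receptors for VIP and PACAP, Vipr1 was at 1.45 FPKM [1.25 to 1.66] and Adcyap1r1, which prefers PACAP, at 1.83 FPKM [1.66 to 2.02]. Vipr2, which binds both peptides, was at 6.77 FPKM [6.43 to 7.12]. The log2 ratio to Vipr2 was -2.23 [-2.44 to -2.01] for Vipr1 and -1.89 [-2.04 to -1.73] for Adcyap1r1.

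The tachykinin receptors are Gq/11-coupled. Tacr3, the neurokinin B receptor known from OFF bipolar cells of rodents, was at 3.67 FPKM [3.43 to 3.92]. Tacr1, the substance P receptor, was at 1.77 FPKM [1.57 to 2.001], and Tacr3 was 2.07-fold [1.80 to 2.37] above it. Oprl1, the nociceptin receptor, was the single measured member of the opioid family, at 2.07 FPKM [1.88 to 2.28]. The Gi/o-coupled neuropeptide Y receptors were the lowest family, with Npy1r at 1.02 FPKM [0.838 to 1.23] and Npy5r at 0.719 FPKM [0.451 to 1.09]. The opioid receptors Oprm1, Oprd1 and Oprk1 and the neuropeptide Y receptor Npy2r carried no symbol here.

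**Figure D3:**
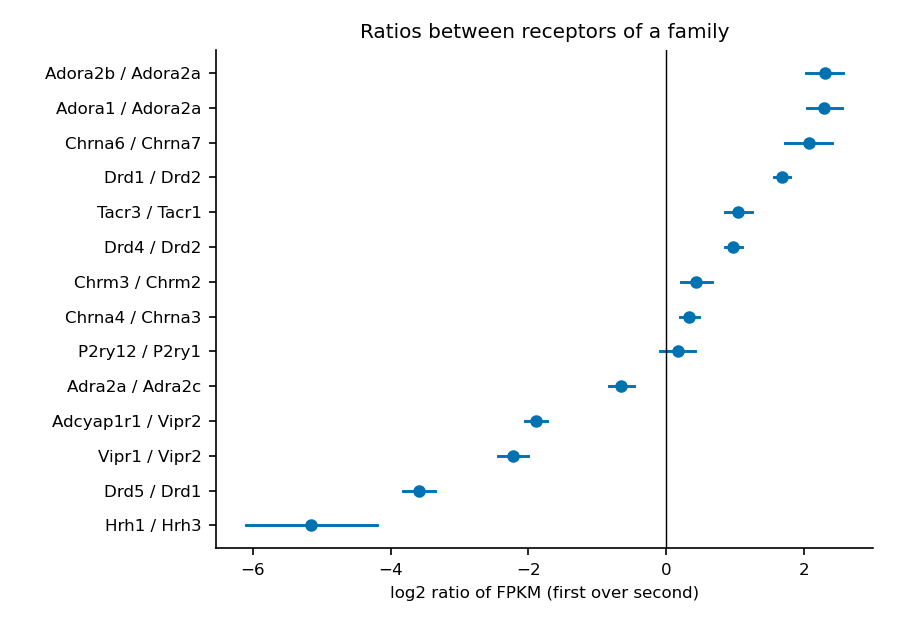
Log2 ratio of the first to the second receptor (FPKM) for 14 of the 15 measured pairs, with 95% counting intervals as bars, in the 1 pool. In 8 of the pairs shown the first receptor was higher, in 5 the second, and the interval of P2ry12 over P2ry1 crosses 0.

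Of 25 pairs listed for comparison, 15 had both members measured, and 14 of these differed beyond counting error. The pairs were listed with earlier results of these data known, so this count is a description of these pairs. Of the 50 steps from each receptor to the next lower one, 8 had a counting interval that excluded equality. Of these 8 steps, 7 lay among the 13 highest receptors, where Chrnb2, Hrh3, Drd1 and P2ry2 were each separated from the next. Chrna1, Drd4, Adora2b, Adora1, Adrb1 and Sstr1 followed between 8.42 and 7.69 FPKM, and no step between these neighbours was resolved. Hrh3 and P2ry2 hold their places as sums: with the highest transcript of each gene they were 5th and 12th. The remaining step apart was that of Tacr3 over Chrm3. From Chrm3 downwards, no receptor differed from the next beyond counting error.

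Grouped by coupling, the 14 ion channel subunits summed to 81.2 FPKM [79.9 to 82.5], of which Chrnb2 held 42.5 FPKM. The 17 Gi/o-coupled receptors summed to 72.2 FPKM [70.6 to 73.9] and the 10 Gs-coupled receptors to 53.5 FPKM [52.4 to 54.6]. The 10 Gq/11-coupled receptors had the lowest sum, 25.8 FPKM [24.9 to 26.8]. Per gene, the Gs-coupled receptors had the highest median, 4.30 FPKM, and 10 of 10 reached 1 FPKM, a share close to the 93.2% of all named genes. The medians were 2.83 FPKM for Gi/o, 2.74 FPKM for ion channels and 2.003 FPKM for Gq/11, where 6 of 10 reached 1 FPKM. No test was made between the classes. Few members of any class reached 10 FPKM: 2 Gs-coupled receptors, 1 Gi/o-coupled receptor, 1 ion channel subunit and no Gq/11-coupled receptor. Of all named genes 34.0% reached that mark. The highest Gq/11-coupled receptor was P2ry2, at 9.40 FPKM as a sum and 4.92 FPKM with its highest transcript.

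The genes that supply or remove the monoamines were uneven. Of 16 listed genes 9 were measured and 8 reached 1 FPKM, a mark that 93.2% of all named genes reached. The breakdown enzymes Maob and Maoa were at 12.7 and 7.49 FPKM, and Hnmt, which inactivates histamine, was at 7.59 FPKM. The synthesis enzymes were near the limit: Th, the first enzyme of dopamine synthesis, was at 1.75 FPKM [1.49 to 2.05], Ddc at 1.10 FPKM [0.876 to 1.37] and Tph1, of serotonin synthesis, at 1.01 FPKM [0.784 to 1.27]. The vesicular transporter Slc18a2 was lowest at 0.807 FPKM [0.640 to 1.00], and the serotonin transporter Slc6a4 was at 1.49 FPKM. Hdc, which makes histamine, and the dopamine and noradrenaline transporters Slc6a3 and Slc6a2 had no transcript with their symbol.

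Genes of the cholinergic system were measured for 11 of 12 symbols, and 10 of them reached 1 FPKM, against 93.2% of all named genes. Lynx1, a membrane-bound modulator of nicotinic receptors, was highest at 24.2 FPKM [23.5 to 24.97], as a sum of 2 transcripts. The acetylcholine-splitting enzyme Ache was at 22.1 FPKM [21.2 to 22.9] on 1 transcript. Levels of single transcripts were not compared for the partner genes, so the place of Lynx1 above Ache rests on its sum. The vesicular acetylcholine transporter Slc18a3, also a sum of 2 transcripts, was at 6.85 FPKM and the choline transporter Slc5a7 at 3.45 FPKM. Both are markers of starburst amacrine cells. Chat, the synthesis enzyme, carried no symbol. Ric3, which helps nicotinic receptors to assemble, was at 3.43 FPKM. Genes of the neuromuscular junction spanned Agrn at 5.32 FPKM and Rapsn, which clusters the muscle receptor, at 4.96 FPKM, to Musk at 0.491 FPKM [0.212 to 0.967] on 8 fragments.

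Of 12 purine genes 11 were measured and 10 reached 1 FPKM, against 93.2% of all named genes. Adk, which removes adenosine by phosphorylation, was highest at 15.1 FPKM as a sum of 2 transcripts. It was followed by the phosphatase Alpl at 12.98 FPKM on 1 transcript. Ectoenzymes that turn ATP into adenosine were at 8.27 FPKM for Entpd2, 4.92 FPKM for Entpd1, 3.31 FPKM for Entpd3 and 5.10 FPKM for Nt5e. Slc17a9, the vesicular ATP transporter, was lowest at 0.520 FPKM on 12 fragments.

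Peptide precursors had the highest median of these lists, 6.60 FPKM. Of 15 listed symbols 11 were measured and 10 reached 1 FPKM, against 93.2% of all named genes. Penk, the enkephalin precursor, was highest at 23.9 FPKM [22.9 to 24.9]. It was followed by Tac2 at 17.5 FPKM, whose symbol in rodents denotes the neurokinin B precursor. The dynorphin precursor Pdyn came next at 17.4 FPKM, as a sum of 2 transcripts. The receptor Tacr3, at 3.67 FPKM, thus stood beside a Tac2 level of 17.5 FPKM, and Tacr1, at 1.77 FPKM, beside 10.8 FPKM of Tac1, the substance P precursor. Sst was at 8.16 FPKM, Npy at 6.60 FPKM, Vip at 5.11 FPKM and Adcyap1, the PACAP precursor, at 1.60 FPKM. Cort was lowest at 0.722 FPKM on 12 fragments.

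**Figure D4:**
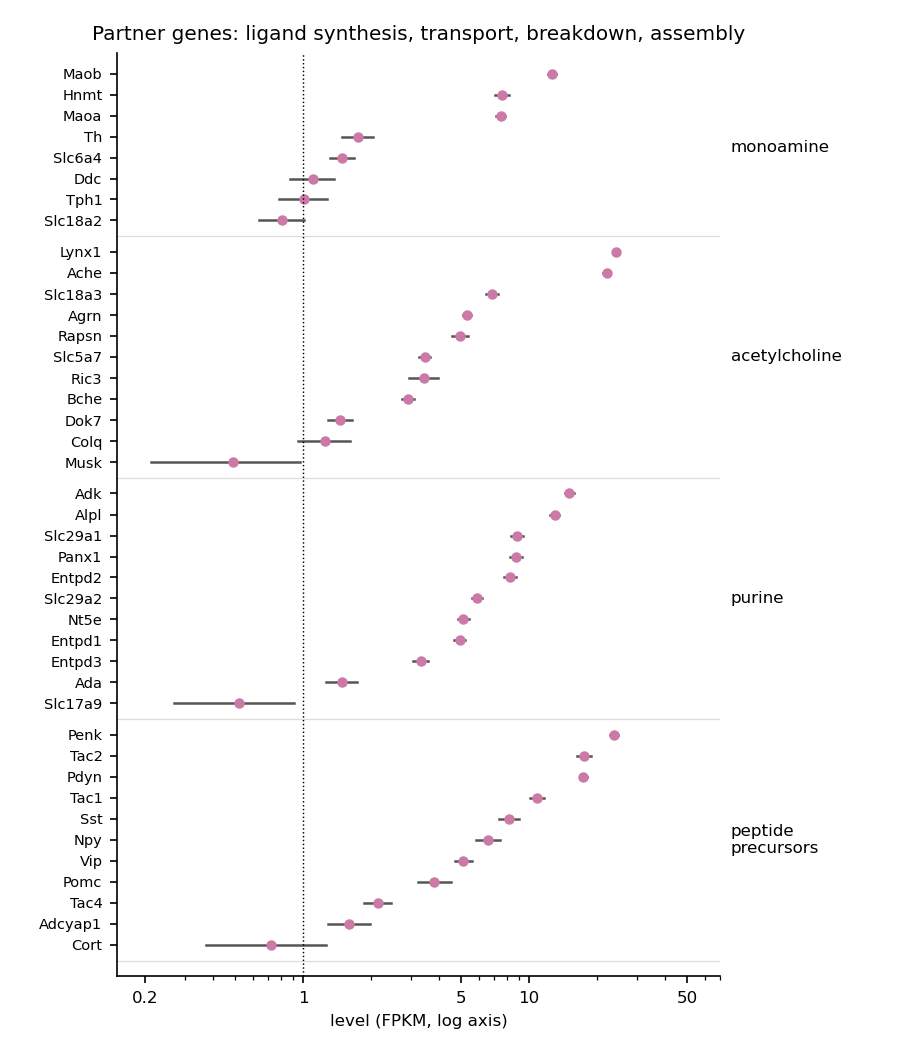
Level of 41 of the 42 measured partner genes (FPKM, log axis), grouped as monoamine, acetylcholine, purine and peptide precursor genes, with 95% counting intervals as bars, in the 1 pool. The dotted line marks 1 FPKM. Of the genes shown, Lynx1 is highest at 24.2 FPKM, as a sum of 2 transcripts. Of these genes 37 lie at or right of the line, as do 93.2% of all named genes.

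How much of each receptor's mRNA the transcripts cover was not measured here, but their number and length were. Of the 51 receptors 45 rested on 1 transcript and 6 (11.8%, against 9.87% of all named genes) on several: Hrh3, P2ry2, Htr5a, Chrna6, P2ry4 and Chrm2. With the highest transcript alone these 6 stood at 8.42, 4.92, 3.58, 2.10, 1.48 and 1.52 FPKM. In Hrh3 and P2ry2 the transcripts had similar levels, so that the sum was close to double that of either. Those of P2ry4 were at 1.48 and 1.15 FPKM.

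**Figure D5:**
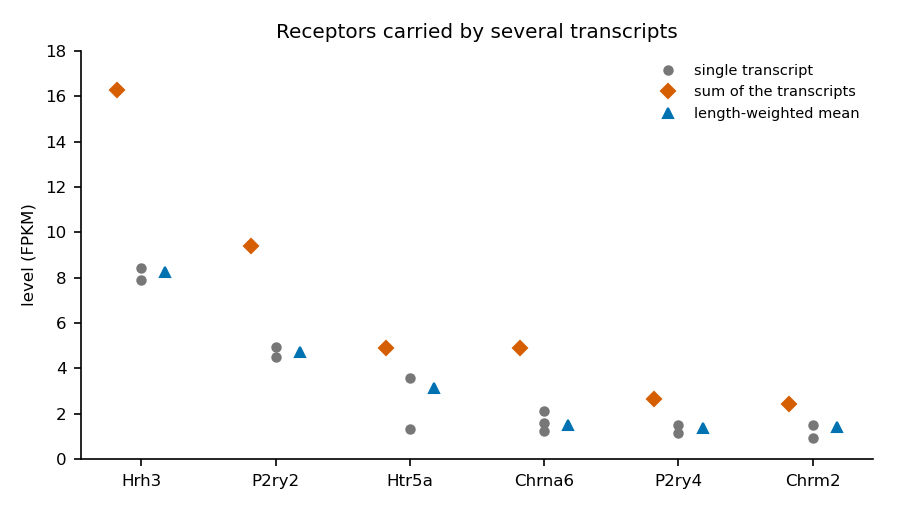
Level (FPKM) of the 6 receptors carried by several transcripts: each transcript (grey circles), their sum as used here (orange diamonds) and their length-weighted mean (blue triangles). For Hrh3 the sum is 16.3 FPKM and the mean 8.25 FPKM.

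The transcripts of low receptors were short. The 8 receptors under 1 FPKM were Htr1d, P2ry6, Adra1b, Npy5r, Chrnd, Chrne, Hrh1 and Htr2a. Their longest transcripts had a median of 574.5 nt, with Htr1d longest at 2574 nt, and they had a median of 23.5 fragments. The 12 receptors at 5 FPKM or more had medians of 3323.5 nt and 1616 fragments. Across the 51 receptors Spearman's rho between level and longest transcript was 0.63, against 0.16 across all 13983 named genes. These are correlations across genes of 1 pool, which are not independent replicates, and level and length share the depth of the same assembly. For 11 receptors the counting interval spanned 1 FPKM, from Chrna7 down to Npy5r, so whether they reached that mark was not resolved at this depth. Those whose interval lay wholly under 1 FPKM were Chrnd, Chrne, Hrh1 and Htr2a.

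Where several species gave a symbol, names were mostly the same. Transcripts with a symbol in 1 species alone, such as those of Adcyap1r1, Hrh1 and Htr2a, were counted as not differing. Mouse, rat and human symbols differed for 5 receptors (9.80%, against 18.5% of all named genes): Drd1, P2ry14, P2ry12, P2rx6 and Oprl1, each of them an older name of the same receptor in 1 or more species. The Nile rat RefSeq annotation (mArvNil1.pat.X) lists 89 protein-coding genes under the same naming rule, and 50 of the 51 receptors matched one of them by symbol; Hrh1 did not. The other 39 were not analysed here, and nothing is said of their expression. In that annotation 8 of the measured receptors overlap another protein-coding gene, among them P2ry12 and P2ry14 with Med12l, Adora1 with Mybph and Sstr2 with Slc39a11. No source used here says whether the library kept the strand, and fragments from overlapping parts cannot be assigned.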

How the data were processed

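RNA of 5 Nile rat eyes was sequenced as 1 pool, per the labels' protocols. Per the file headers, the deposited table gives for each of 124439 transcripts its FPKM, its estimated count of fragments and its length, with 64967222 mapped fragments in all. The estimated counts deposited by the authors need not be whole. Bowtie is named in the submitters' processing notes; no source used here gives its version, the assembler or a genome build. The ortholog names deposited by the authors were read in the order mouse, rat, human, skipping Ensembl and GenBank identifiers, which named 15455 transcripts. FPKM was summed per gene. Level intervals are 95% gamma intervals and ratio intervals 95% delta-method Poisson intervals; both cover counting error only, and PCR copies are not independent molecules. FPKM 1 on 1000 nt rests on 65.0 fragments [0.772 to 1.27 FPKM], and at that length 0 fragments leave room for a level of 0.0462 FPKM (3 fragments). No test was made, as there are no replicates. Receptors, pairs and lists were chosen with earlier results of these data known. Ratios outside the 25 listed pairs were not planned. A few genes count in the totals without a value of their own in the text. The other receptors are all named; values are given for the highest and lowest of each family, members of pairs, and those above 10 or under 1 FPKM, with further ones added after the values were seen. Of partner lists, the highest, the lowest and the synthesis enzymes are named by rule, and others as examples. Planned comparisons with protein sequences were not made, as none were used here. The interval computation was tested on counts drawn from the same Poisson model. That checks the computation alone and cannot show how well the model describes the real counts. The tools were SciPy 1.17.1, Matplotlib 3.10.9, pandas 2.3.3 and NumPy 2.4.6 under Python 3.11.15.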

Additional observations from a re-analysis of the deposited data

Results flagged for a closer look

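A transcript outside the receptor set carried a receptor-like name in 1 species. The transcript named Caly in mouse and human, for the calcyon protein, was named Drd1ip in rat, an older symbol for a protein that binds the D1 dopamine receptor. It stood at 9.70 FPKM on 690.5 fragments of 1096 nt. It is not a receptor and entered no sum or count of receptors, though it is 1 of the named genes.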

How the results depend on the processing

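The number of receptors reaching the mark was 43 of 51 with the highest transcript, the length-weighted mean and human symbols first. With transcripts of at least 500 nt it was 43 of 48, since Npy5r, Hrh1 and Htr2a, all under 1 FPKM, dropped out. It was 38 of 46 with agreeing symbols and 36 of 51 with FPKM rescaled to a sum of 1000000. The share of all named genes was not computed for these settings. With the main values, 49 receptors reached 0.5 FPKM (99.0% of all named genes) and 12 reached 5 FPKM (59.8%). Agreeing symbols include those given in 1 species alone. The median was 1.82 after rescaling and 3.06 FPKM over the 43 receptors above 1 FPKM, against 2.50 FPKM. The receptors' share of named FPKM, 0.0945%, was 0.0913% with the highest transcript, 0.106% with transcripts of at least 500 nt and 0.102% with agreeing symbols. Nicotinic subunits held 31.5% of receptor FPKM, and 33.0%, 32.9% and 35.0% with the highest transcript, the length-weighted mean and agreeing symbols, the last of which leaves out Drd1. No pair ratio that could be formed changed direction, but most settings could not have reversed one. Rescaling and a pseudocount keep the order of any pair by construction. In 12 of 15 pairs each gene rested on 1 transcript, so the highest transcript and the mean returned the same ratio. With the highest transcript or the mean, 3 of 15 ratios left their counting interval: those of Chrm3 to Chrm2, Chrna6 to Chrna7 and Hrh1 to Hrh3. A pseudocount of 1 FPKM, which shrinks ratios by construction, moved 10 of 15. Samples could not be left out in turn with 1 column of values. No paired analysis was possible because the samples form 1 group.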

Other observations

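Of the measured receptors, 4 pairs are neighbours in the Nile rat RefSeq annotation. Chrna6 and Chrnb3, subunits that occur together in rodent neurons, lay at 4.88 and 4.77 FPKM, a ratio of 1.02 [0.938 to 1.11], while the highest single transcript of Chrna6 is at 2.10 FPKM. Chrna3 was 2.97-fold [2.30 to 3.84] above its neighbour Chrna5. P2ry2 was 9.77-fold [7.45 to 12.8] above its neighbour P2ry6 as a sum of its transcripts, and 5.12-fold with its highest transcript. Npy1r over Npy5r gave 1.42 [0.898 to 2.24], which holds equality.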
